A study of Rattus norvegicus with 4 samples.

Results

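A set of 10 regulators of the pancreatic acinar cell were followed across dietary iron deficiency and overload in rat pancreas. They are the transcription factors Ptf1a, Bhlha15, Rbpjl, Nr5a2, Gata4 and Gata6, the secretagogue receptors Cckar, Chrm3 and Sctr, and the granule GTPase Rab3d. The genes were chosen by name, for their known roles in acinar identity and stimulated secretion, with earlier results of these data known. Their probes were taken by gene symbol. The 10 genes were read by 11 probes, 2 of them for Nr5a2, out of 26514 gene names and 30367 probes on the array.

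Acinar cells make up most of the pancreas and secrete digestive enzymes from zymogen granules. Their identity rests on PTF1, a complex of the basic helix-loop-helix protein Ptf1a, a common E-protein and Rbpj or its acinar form Rbpjl, which drives the digestive enzyme genes together with Nr5a2 and the Gata factors, whereas Bhlha15 organizes the secretory apparatus. Cholecystokinin and acetylcholine act on acinar cells through Cckar and Chrm3, which raise cytosolic calcium, secretin acts through Sctr, which raises cyclic AMP, and Rab3d sits on the granules that are then released.

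Male Sprague-Dawley rats were fed purified diets for 3 weeks from weaning and were fasted overnight before the pancreas was taken. The iron-deficient diet (FeD) had no added iron and held 5 ppm, the iron-adequate diet (FeA) was supplemented with ferric citrate to 35 ppm, and the iron-overloaded diet (FeO) was loaded with carbonyl iron to 20275 ppm. All 3 diets carried extra sucrose, the FeA control included. RNA of whole pancreas from 6 rats per diet was combined into 1 pool, and each of the FeD and FeO pools was hybridized together with the FeA pool on 2 arrays, with the dyes exchanged between them, 4 arrays in all. On array 1 of each comparison the diet pool was labelled with Cy5 and the FeA pool with Cy3, and on array 2 the reverse. The 2 arrays of a comparison therefore hold the same RNA, their spread is technical, and no difference between diets could be tested over animals. In whole-tissue RNA, fewer cells of a type and less RNA per cell cannot be told apart.

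Promoter sequences are shown for Ptf1a, Rbpjl and Bhlha15, since the first had the lowest ratio of the 10 genes under both diets, the second encodes its partner, and the third carries the same E-box in several copies. RefSeq promoter sequence of build GRCr8 was found for 8 of the 10 genes, all except Gata4 and Cckar. Each sequence gives the 250 bases before the RefSeq start of the gene, 5′ to 3′ on the strand of the gene. Capitals mark every E-box CANNTG and every TTCCCA, the core of the site that the Rbpj proteins read, on either strand, so that TTCCCA on the other strand appears as TGGGAA. Ptf1a lies at chr17:86959371-86959620 on the plus strand, Rbpjl at chr3:173553248-173553497 on the plus strand, and Bhlha15 at chr12:15538300-15538549 on the minus strand.
Ptf1a: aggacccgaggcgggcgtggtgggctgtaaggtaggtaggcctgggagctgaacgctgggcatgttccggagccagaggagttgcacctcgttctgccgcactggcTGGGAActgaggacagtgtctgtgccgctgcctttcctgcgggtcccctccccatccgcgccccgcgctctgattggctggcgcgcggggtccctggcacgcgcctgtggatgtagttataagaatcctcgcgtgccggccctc
Rbpjl: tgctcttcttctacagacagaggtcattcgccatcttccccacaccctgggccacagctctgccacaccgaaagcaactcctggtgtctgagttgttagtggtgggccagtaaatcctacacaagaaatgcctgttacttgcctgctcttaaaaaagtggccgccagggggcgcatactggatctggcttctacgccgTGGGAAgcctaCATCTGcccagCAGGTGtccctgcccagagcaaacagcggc
Bhlha15: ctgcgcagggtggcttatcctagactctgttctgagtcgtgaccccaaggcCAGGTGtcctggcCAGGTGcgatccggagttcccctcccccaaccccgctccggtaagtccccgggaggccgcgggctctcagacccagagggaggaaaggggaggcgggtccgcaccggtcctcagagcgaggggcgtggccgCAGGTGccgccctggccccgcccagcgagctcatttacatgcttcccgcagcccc

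The Rbpjl promoter carried both elements of the composite site that PTF1 is known to read. Its TGGGAA began 52 bases before the start, and it was followed after 5 bases by CATCTG and after 16 bases by CAGGTG. An E-box followed within 20 bases by TTCCCA, read on either strand, was present in 2.26% of 33469 promoters of this length and in Rbpjl alone among the 8 genes. The Ptf1a promoter held 1 TTCCCA and 0 E-boxes, and that of Bhlha15 held 3 copies of CAGGTG, the reverse complement of CACCTG. Counted singly on both strands, CANNTG was found in 6 of the 8 genes and in 65.5% of all promoters. CACCTG, 1 of the forms of CANNTG, was found in 5 of the 8 genes and in 15.9% of all promoters. TTCCCA was found in Ptf1a, Rbpjl and Sctr and in 22.1% of all promoters. CAAGGNCA, a form of the Nr5a2 motif, was found in Bhlha15 and in 5.58% of all promoters. AGATAA, a form of the Gata motif, was found in 10.3% of all promoters and CATATG, another form of CANNTG, in 3.63%, and both were found in 0 of the 8 genes. Other forms of the Gata motif were not counted, so this 0 does not mean that the promoters lack one. These matches describe the letters in a short window and were not tested for binding.

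All 10 genes passed the filter, which asked that a probe be well above background on both arrays in at least 1 of the 2 pools of a comparison. Values are given as the log2 ratio of the diet pool over the FeA pool, so that 0 means equal signal and −1 means a signal reduced to 50%, and as normalized log2 signals of each pool in each dye. The median ratio of all genes was 0.010 in FeD (15733 genes) and 0.014 in FeO (16433 genes). The middle of the distribution, from the 5th to the 95th percentile, ran from −0.23 to 0.32 in FeD and from −0.33 to 0.42 in FeO. The median SD between the 2 arrays was 0.15 and 0.16. When the FeA pool was compared with itself in the same dye on different arrays, the median absolute difference was 0.095 in Cy3 and 0.13 in Cy5, and 95% of probes differed by less than 0.67 and 0.60.

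None of the 10 regulators reached the log2 size of 2 that the study used, nor a size of 1, under either diet, although Chrm3 reached −1.01 on array 2 alone in FeO. In all genes, the share past a size of 2 with the same sign on both arrays was 0.102% in FeD and 0.176% in FeO, and past a size of 1 it was 0.356% and 1.08%. Ptf1a was lower than FeA on both arrays in each comparison, 1 of 10 genes, where 21.7% of all genes were lower on both arrays in FeD and 24.2% in FeO. Nr5a2, Gata4 and Cckar were higher on both arrays in each comparison, 3 of 10 genes, beside 25.3% of all genes in FeD and 28.1% in FeO. The other 6 genes had opposite signs on the swapped arrays in both comparisons. These counts depended on the normalization. With median centring in place of loess, Ptf1a had ratios of 0.18 and −0.99 in FeD and remained lower on both arrays in FeO, and the genes lower on both arrays numbered 3 in FeD (Rbpjl, Gata6 and Sctr) and 2 in FeO, while Gata4 was the 1 gene higher on both in FeD. With the processed signals of the scanner software, 2 genes (Ptf1a and Gata6) were lower and 2 (Bhlha15 and Nr5a2) were higher on both arrays in each comparison. The median ratio over the 10 genes was −0.068 in FeD and −0.00043 in FeO. Taken on single arrays it was −0.018 on array 1 and 0.24 on array 2 in FeD, and −0.044 and 0.22 in FeO. Both comparisons share the FeA pool, so their values are set side by side and are not independent of each other.

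**Figure D1:**
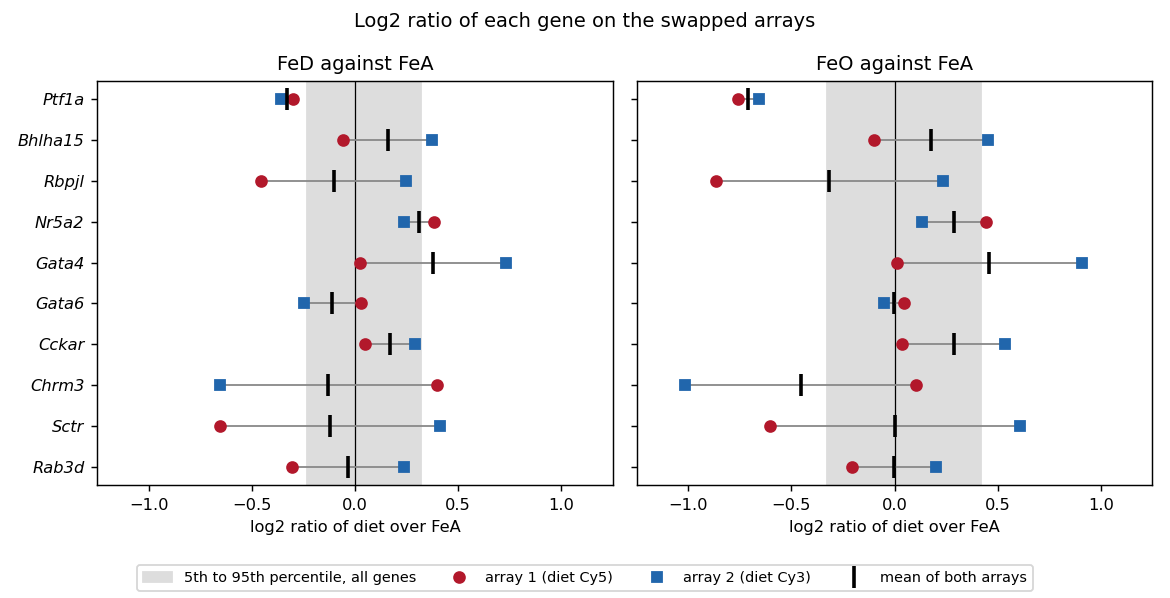
Log2 ratio of the diet pool over the FeA pool (horizontal axis) for the 10 genes (vertical axis), FeD on the left and FeO on the right. Circles are array 1 (diet pool in Cy5), squares array 2 (diet pool in Cy3), bars the mean of both, and the grey band the 5th to 95th percentile of all genes. The Ptf1a points sit close together left of the band, at −0.30 and −0.36 in FeD and −0.76 and −0.66 in FeO, whereas Chrm3, Sctr and Rbpjl have a point on each side of 0.

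Ptf1a, a transcription factor that specifies the acinar lineage, had the lowest mean ratio of the 10 genes in both comparisons. In FeD, its log2 ratio was −0.30 on array 1 and −0.36 on array 2, a mean of −0.33 ± 0.041 (SD of 2 technical arrays), or 79.6% of FeA. In FeO, it was −0.76 and −0.66, a mean of −0.71 ± 0.071 (SD of 2 technical arrays), or 61.2% of FeA. Only 2.3% of all genes in FeD and 0.937% in FeO had a lower mean ratio. The log2 signals, which hold the same measurements as these ratios, gave the same order of pools. The FeA pool gave 13.16 and 13.35 in Cy3 and 13.48 and 13.30 in Cy5, the FeD pool gave 12.86 in Cy5 and 13.12 in Cy3, and the FeO pool gave 12.59 in Cy5 and 12.65 in Cy3. Both FeO signals and both FeD signals lay below all 4 FeA signals, and both FeO signals lay below both FeD signals. The gap between FeD and FeA was small in places, since the FeD signal in Cy3 was close to the lower of the FeA signals in that dye. The SD of 0.041 in FeD was smaller in size than the differences between the FeA repeats, 0.19 in Cy3 and −0.18 in Cy5. Ptf1a was the 1 probe of 11 with both diet signals below all 4 FeA signals in each comparison, beside 8.66% of all probes in FeD and 11.8% in FeO.

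Rbpjl and Bhlha15 gave ratios of opposite sign on the swapped arrays. Rbpjl, the acinar form of the Rbpj subunit of PTF1, gave ratios of −0.45 and 0.25 in FeD (mean −0.10 ± 0.50) and −0.86 and 0.23 in FeO (mean −0.32 ± 0.78). Its signal in the FeA pool was 11.35 and 11.36 in Cy3 and 11.15 and 10.88 in Cy5, that in the FeD pool 11.40 in Cy3 and 10.89 in Cy5, and that in the FeO pool 11.12 in Cy3 and 10.50 in Cy5. Within each dye the FeO pool was therefore the lowest of the 3 pools, although the ratios on the swapped arrays pointed in opposite directions. Bhlha15, which builds the granule and secretory machinery, gave ratios of −0.06 and 0.38 in FeD (mean 0.16 ± 0.31) and −0.10 and 0.45 in FeO (mean 0.18 ± 0.39). Its FeA signals, 13.28 and 13.43 in Cy3 and 13.00 and 12.95 in Cy5, spanned a range that held every FeD and FeO signal, from 13.22 to 13.40.

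Nr5a2, a nuclear receptor that works with PTF1 on the enzyme genes, and Gata4, a zinc-finger factor of pancreas development, were higher than FeA on both arrays with loess, though not Nr5a2 with median centring or Gata4 with processed signals or, in FeO, with an offset of 0. Nr5a2 gave ratios of 0.38 and 0.24 in FeD (mean 0.31 ± 0.10, 124% of FeA) and 0.44 and 0.13 in FeO (mean 0.29 ± 0.22, 122% of FeA). Its 2 probes differed little, with means of 0.37 and 0.26 in FeD and 0.30 and 0.27 in FeO. The first probe read 8.41 to 8.59 in the FeA pool, 8.91 and 8.82 in FeD and 8.99 and 8.68 in FeO, and all 4 diet signals lay above all FeA signals. The second probe read 8.80 to 9.05 in FeA, 9.15 and 9.29 in FeD, and 9.29 and 8.97 in FeO, so that 1 FeO signal fell within the FeA range. Gata4 gave ratios of 0.022 and 0.73 in FeD (mean 0.38 ± 0.50) and 0.013 and 0.91 in FeO (mean 0.46 ± 0.63). The Gata4 signals were 9.12 to 9.39 in FeA, 9.41 and 9.85 in FeD, and 9.37 and 10.08 in FeO. The ratio was near 0 on array 1 and positive on array 2 in both comparisons. In FeD, 3 of 11 probes (Gata4 and both of Nr5a2) had both diet signals above all 4 FeA signals, beside 11% of all probes, and in FeO 1 of 11 did (an Nr5a2 probe), beside 13.7%.

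Gata6, which is kept in adult acinar cells and maintains their differentiation, was measured close to background. It was well above background in FeA on both arrays of each comparison, but in the FeD and FeO pools only on the array where they were labelled with Cy5. Its ratios were 0.028 and −0.25 in FeD (mean −0.11 ± 0.20) and 0.045 and −0.052 in FeO (mean −0.0039 ± 0.069). The signals ran from 6.46 to 6.83 in FeA, and both FeD signals, 6.68 and 6.58, lay inside that range. The FeO pool gave 6.77 in Cy5 and 6.41 in Cy3, the latter just below the FeA range.

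**Figure D2:**
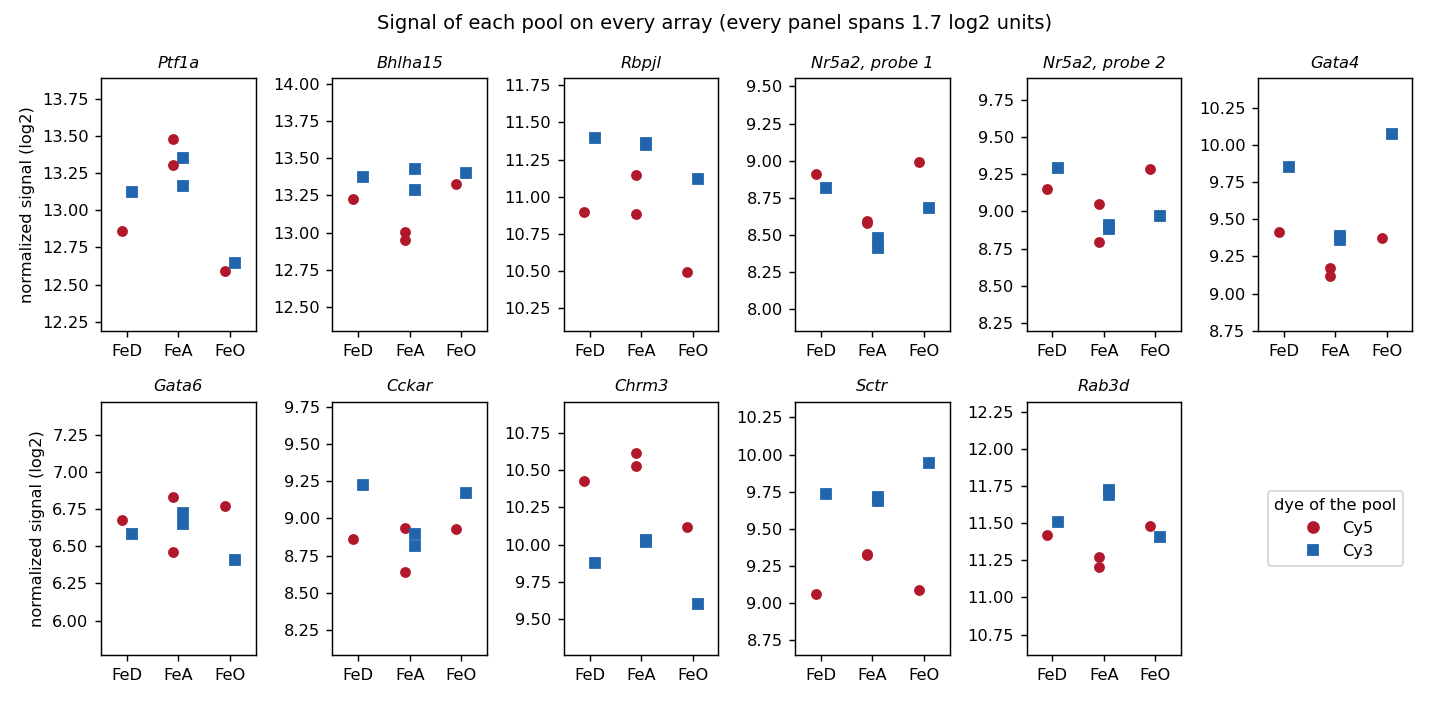
Normalized log2 signal (vertical axis) of each pool (horizontal axis) for the 11 probes, with circles for Cy5 and squares for Cy3; each point is 1 channel of 1 array, and every panel spans the same log2 range. The FeA pool has 4 points and each diet pool 2, and the FeO points of Ptf1a, 12.59 and 12.65, lie below those of the other pools.

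Of the receptors for secretagogues, Cckar was higher on both arrays in each comparison with loess, but its ratios were 0.38 and −0.12 in FeD with median centring, and −0.13 and 0.51 in FeD and −0.17 and 0.82 in FeO with processed signals. Cckar, the receptor for cholecystokinin, gave ratios of 0.048 and 0.29 in FeD (mean 0.17 ± 0.17, 112% of FeA) and 0.037 and 0.53 in FeO (mean 0.29 ± 0.35, 122% of FeA). Its FeA signals were 8.81 and 8.89 in Cy3 and 8.94 and 8.64 in Cy5, whereas the diet pools gave 9.23 (FeD) and 9.17 (FeO) in Cy3 and 8.86 and 8.93 in Cy5. The diet pools thus exceeded FeA in Cy3 and lay within the FeA range in Cy5.

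Chrm3, the muscarinic receptor that carries the vagal signal, had, with Sctr, among the largest spreads between arrays. Its ratios were 0.40 and −0.65 in FeD (mean −0.13 ± 0.74) and 0.10 and −1.01 in FeO (mean −0.46 ± 0.79, 72.9% of FeA). Chrm3 gave a stronger signal in Cy5 than in Cy3 in every pool. The FeA pool read 10.53 and 10.62 in Cy5 and 10.03 and 10.02 in Cy3, the FeD pool 10.43 and 9.88, and the FeO pool 10.12 and 9.60. In each dye taken alone the order was FeA, then FeD, then FeO, and the FeA repeats differed by less than the step from FeA to FeO. Of all genes, 2.48% had a lower mean ratio in FeO than Chrm3, and 15.2% had a lower one in FeD.

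Sctr, the receptor for secretin, showed the opposite dye pattern, with a stronger signal in Cy3. Its ratios were −0.65 and 0.41 in FeD (mean −0.12 ± 0.75) and −0.60 and 0.61 in FeO (mean 0.0025 ± 0.85). The FeA pool read 9.72 and 9.69 in Cy3 and 9.32 and 9.33 in Cy5, the FeD pool 9.74 and 9.06, and the FeO pool 9.94 and 9.09. Both diet pools lay below FeA in Cy5 and above it in Cy3. Rab3d, the GTPase of the zymogen granule membrane and a known target of Bhlha15, gave ratios of −0.31 and 0.24 in FeD (mean −0.034 ± 0.38) and −0.21 and 0.20 in FeO (mean −0.0034 ± 0.29). All 4 diet signals of Rab3d, from 11.41 to 11.51, lay inside the FeA range of 11.20 to 11.72.

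A gene whose signal depends on the dye can give ratios of opposite sign on swapped arrays. The dye part, taken as the ratio on array 1 minus that on array 2, divided by 2, was 0.53 in FeD and 0.56 in FeO for Chrm3. It was −0.53 and −0.60 for Sctr, −0.35 and −0.55 for Rbpjl, and −0.36 and −0.45 for Gata4. For comparison, its median size over all genes was 0.11 in both comparisons, and 95% of genes were below 0.36 in FeD and 0.38 in FeO. Ptf1a had a dye part of 0.029 and −0.050 with loess. This small dye part depended on the normalization. With median centring, the Ptf1a ratios on arrays 1 and 2 were 0.18 and −0.99 in FeD and −0.11 and −1.01 in FeO. Pools were therefore also compared within each dye, a comparison chosen after the data were seen, by subtracting the FeA signal from the diet signal of the same dye on the other array. This pairs the same signals in another way. The mean over both dyes therefore equals the mean ratio over both arrays and is not a second measurement.

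Within dyes, Ptf1a was below FeA in both diet pools, with differences of −0.62 in Cy5 and −0.041 in Cy3 in FeD and of −0.71 in each dye in FeO. The FeD difference in Cy3 was smaller than the difference of 0.19 between the FeA repeats in that dye. Chrm3 was lower in both dyes, at −0.10 (Cy5) and −0.16 (Cy3) in FeD and at −0.49 and −0.42 in FeO. Rbpjl was lower in both dyes in FeO, at −0.39 and −0.24, and of mixed sign in FeD, with −0.25 and 0.047. Gata6 was lower in both dyes in FeD, at −0.15 and −0.067, and of mixed sign in FeO, at 0.31 and −0.31. Nr5a2 and Gata4 were higher in both dyes under both diets, with Nr5a2 at 0.22 and 0.41 in FeD and 0.44 and 0.13 in FeO and Gata4 at 0.29 and 0.46 in FeD and 0.20 and 0.72 in FeO. Cckar was higher in both dyes in FeO, by 0.29 and 0.28, and of mixed sign in FeD, at −0.075 and 0.41. Bhlha15 was higher in both dyes in FeD, by 0.22 and 0.093, and of mixed sign in FeO, at 0.38 and −0.027. Several of these differences were smaller in size than those between the FeA repeats. The repeats differed in Cy5 by −0.30 for Cckar, −0.26 for Rbpjl and −0.37 for Gata6, and in Cy3 by 0.14 for Bhlha15. These exceeded in size both Cy5 differences of Cckar and Gata6, the Cy5 difference of Rbpjl in FeD and both Cy3 differences of Bhlha15. Thus 3 of 10 genes were lower and 3 of 10 higher within both dyes in each comparison. The share of all genes was 24.6% lower and 25.7% higher in FeD, and 24.1% lower and 29.2% higher in FeO, so these counts were near those of the array as a whole.

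The FeO and FeD pools could be compared within a dye without subtracting an FeA signal, although the FeA pool still entered through the normalization of each array. Ptf1a was lower in FeO than in FeD, with differences of −0.27 in Cy5 and −0.48 in Cy3, as were Rbpjl, with −0.40 and −0.28, and Chrm3, with −0.31 and −0.28. The mean differences were −0.37, −0.34 and −0.29, and 9.65%, 11% and 13.4% of all genes had a lower one. Bhlha15, at 0.10 and 0.022, and Sctr, at 0.023 and 0.21, were higher in FeO in both dyes. Nr5a2, Gata4, Cckar and Rab3d had opposite signs in the 2 dyes, and Gata6 did not pass the filter here. The 3 lower and 2 higher genes of 9 stood beside 33.4% lower and 33.8% higher among all genes. These pools were on different arrays, so the differences include the variation between arrays.

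**Figure D3:**
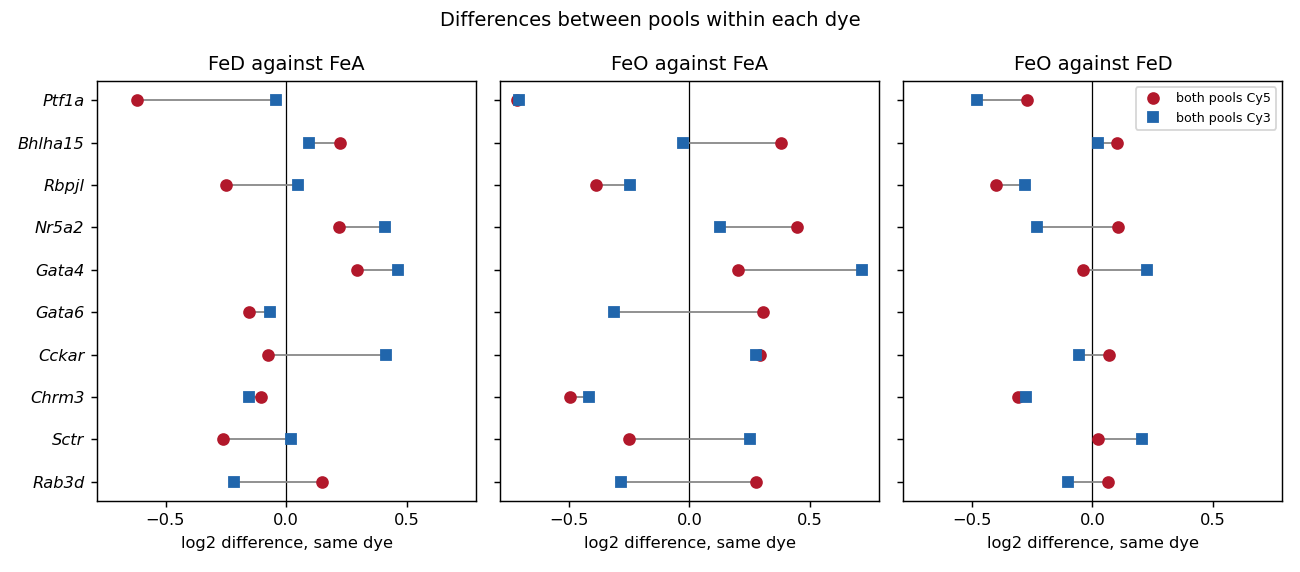
Log2 difference between pools labelled with the same dye (horizontal axis) for each gene (vertical axis), for FeD against FeA, FeO against FeA and FeO against FeD. Circles are both pools in Cy5 and squares both pools in Cy3, and Gata6 has no value in the third panel. In FeO against FeA, the points of Ptf1a coincide at −0.71 and those of Chrm3 lie at −0.49 and −0.42.

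Tests over the 2 arrays compare RNA pools by technical error and not diets. At the level of probes, limma gave an unadjusted p of 0.0025 for Ptf1a in FeO and, after Benjamini-Hochberg adjustment over 18315 probes, an adjusted p of 0.126. In FeD, 1 of the 2 Nr5a2 probes was the only one of the 11 with an unadjusted limma p below 0.05, beside 6.09% of all probes in FeD and 8.81% in FeO. With Benjamini-Hochberg adjustment, limma left 0 of the 11 probes past 0.05 in either comparison, with 103 of 17513 probes past it in FeD and 153 of 18315 in FeO. The methods' t-test gave 0 of the 11 probes in FeD and Ptf1a alone in FeO before adjustment, beside 6.23% and 7.97% of all probes, and 0 in either comparison after it (adjusted p = 0.48 for Ptf1a in FeO).

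Genes that work with these regulators were mostly near 0. For the counts below, 21.7% of all genes were lower and 25.3% higher on both arrays in FeD, and 24.2% and 28.1% in FeO. Of 20 partner and lineage transcription factors, 16 passed the filter in each comparison. Their median ratio was −0.042 in FeD, with 6 lower and 5 higher on both arrays, and 0.047 in FeO, with 5 lower and 7 higher. Nr0b2, a corepressor that binds Nr5a2, was the 1 gene of that list past a size of 1. Its ratios were −0.79 and −0.62 in FeD (mean −0.71) and −1.39 and −0.97 in FeO (mean −1.18). Among 10 secretagogues and other receptors, 6 passed, with a median of −0.0096 in FeD (3 lower and 2 higher on both arrays) and −0.0035 in FeO (2 lower and 3 higher). In FeO they ran from −0.51 for Vipr1, a receptor for vasoactive intestinal peptide, to 0.18 for Grpr, the receptor for gastrin-releasing peptide, and in FeD from −0.24 for Vipr2 to 0.36 for the neurotensin receptor Ntsr1.

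Of 26 genes of receptor signalling, from G proteins to calcium channels, 20 passed in FeD with a median of 0.0046 (4 lower and 4 higher on both arrays). In FeO, 22 passed with a median of 0.062 (4 lower and 7 higher). Gnas, the stimulatory G protein that couples Sctr to cyclic AMP, had the lowest ratio of this list in both, −0.22 in FeD and −0.34 in FeO. The highest was 0.36 for Tpcn2, a channel of acidic calcium stores, in FeD, and 0.75 for Rgs2, an inhibitor of the G protein used by Cckar and Chrm3, in FeO. Of 30 genes of granule exocytosis, the machinery around Rab3d, 24 passed in FeD with a median of 0.044 (4 lower and 12 higher on both arrays). Of all genes, 25.3% were higher on both arrays in FeD, a smaller share than in this list. In FeO, 25 of the exocytosis genes passed with a median of 0.0081 (6 lower and 5 higher). They ran from −0.22 for the SNARE protein Stx4 to 0.29 for Rab3il1, an exchange factor of the Rab3 family, in FeD, and from −0.31 for the priming factor Unc13d to 0.37 for the granule motor Myo5c in FeO. Of 7 described targets of Bhlha15, 6 passed, with medians of 0.022 (1 lower and 1 higher on both arrays) in FeD and 0.053 (1 lower and 0 higher) in FeO. They ran from −0.058 for Copz2 to 0.24 for Cdkn1a in FeD, and from −0.20 for Ccpg1 to 0.13 for Cdkn1a in FeO.

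Digestive enzymes and other granule proteins, the genes that PTF1, Nr5a2 and Bhlha15 serve, had a median below 0 in FeO and no steady side in FeD. Of 26 such genes, 25 passed in FeD with a median of 0.14, from −0.31 for Cel to 0.60 for Ctrb1. Of these, 1 was lower and 7 were higher on both arrays, beside 21.7% and 25.3% of all genes. That FeD median was 0.24 on array 1 and −0.021 on array 2. In FeO, 18 had a value, with a median of −0.29 (−0.22 on array 1 and −0.53 on array 2). Of these, 11 were lower and 2 higher on both arrays, beside 24.2% and 28.1% of all genes. They ran from −2.28 for the trypsinogen Prss3 to 0.62 for the trypsin inhibitor Spink3. Trypsinogens share sequence, and 1 of the 2 Prss3 probes had no ratio in FeO, so that value is uncertain. Enzyme spots were very bright, and of 28 enzyme probes 16 were saturated on an array and 9 had no FeO ratio once outlier spots were left out. The 10 regulators had no saturated and no outlier spot.

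**Figure D4:**
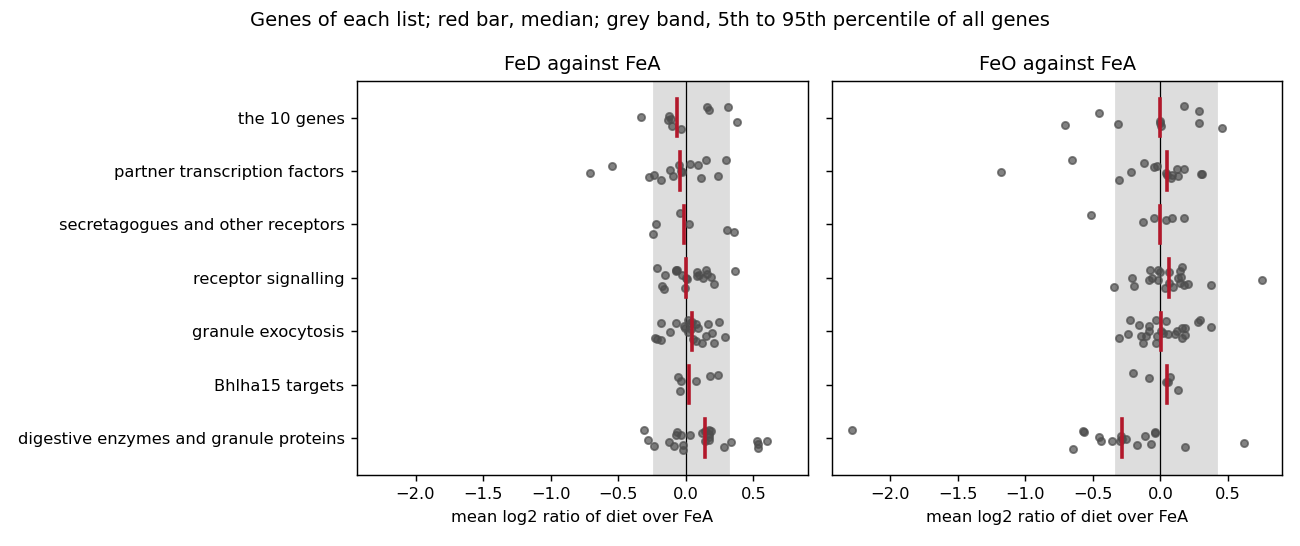
Mean log2 ratio of diet over FeA (horizontal axis) for each gene of the lists named on the vertical axis, FeD on the left and FeO on the right, with red bars for list medians and a grey band for the 5th to 95th percentile of all genes. The median of the digestive enzymes lies at −0.29 in FeO and at 0.14 in FeD, where it was 0.24 on array 1 and −0.021 on array 2, and the other medians lie close to 0.

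Markers of other cell types also differed between the pools. For the counts here, 21.7% of all genes were lower and 25.3% higher on both arrays in FeD, and 24.2% and 28.1% in FeO. The tissue carried its acinar label, with all 10 acinar markers passing the filter in FeD. Over the 6 acinar markers with a ratio on every array, the summed linear signal was 2078000 to 2845000 in FeA, 2465000 to 2620000 in FeD and 2142000 to 2195000 in FeO. The acinar marker median was 0.068 in FeD (10 genes, 1 lower and 4 higher on both arrays) and −0.27 in FeO (6 genes, 4 lower and 1 higher). Gut epithelial markers were lower under both diets than in the 1 FeA pool that both comparisons share. Medians were −1.26 in FeD and −1.43 in FeO, with 9 of 11 genes lower on both arrays in each. Their summed signal was 7010 to 7772 in FeA, 4683 to 5544 in FeD and 4112 to 4999 in FeO, and Agr2, Cdhr5 and Cdx2 were not above background in either diet pool. Adipocyte markers had a median of 1.56 in FeO (6 of 7 higher on both arrays) and −0.025 in FeD, with sums of 36280 to 36990 in FeO, 8092 to 9241 in FeD and 8755 to 11290 in FeA. Fibroblast markers had a median of 0.45 in FeO and 0.0074 in FeD, lymphocyte markers −0.43 in FeO and 0.48 in FeD, and smooth muscle markers 0.025 in FeO (−0.32 on array 1 and 0.39 on array 2) and −0.43 in FeD (−0.84 and −0.11). Mesothelial markers had a median of 0.59 in FeO and 0.036 in FeD, where it was 0.035 on array 1 and −0.040 on array 2. Macrophage markers had medians of 0.27 in FeO, from −0.93 for Marco to 0.95 for Cd163, and 0.21 in FeD. Their summed signal was 5497 to 9029 in FeO and 13740 to 16300 in FeD, beside 4502 to 12180 in FeA. Medians of endothelial markers (0.39 in FeO and 0.31 in FeD) were above 0 in both, whereas those of islet markers (−0.20 and −0.17) were below it. Duct markers (−0.058 and 0.032) and nerve markers (0.035 and 0.037) had medians near 0. Single genes lay further out. In FeO, duct markers ran from −0.98 for Krt19 to 0.29 for Cftr (3 lower and 2 higher on both arrays). Islet markers in FeO ran from −1.08 for Ppy to 1.14 for Gcg (7 lower and 1 higher). The lower FeO values of Ptf1a, Rbpjl and Chrm3 therefore came from a pool that also differed in these markers, and the part of other cells in those values was not tested.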

How the data were processed

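The 4 arrays (Agilent rat 4x44K) were made from 3 pools of pancreatic RNA, each from 6 rats. The intensity values, deposited by the authors from Agilent Feature Extraction 10.1.1.1, are median spot and background signals. The deposited log10 values are Cy5 over Cy3 ratios of the software's processed signals. Mean spot signals were not used. Groups and dyes came from the labels. The authors' own tables hold log2 fold changes, p-values and q-values per probe, of which only the gene symbols were used.

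The package limma 3.58.1 in R 4.3.3 was used for normalization. The normexp method (offset 50) corrected the background, loess was applied within each array with control spots at zero weight, and spots marked as outliers were left out (722, 938, 764 and 735). Spots of a probe were averaged, the swapped array was turned, and both arrays were averaged. Signals of single dyes came from Aquantile normalization of the same values. Median spot signals were 115 to 222.5 intensity units per channel, and 61.9% to 71.5% of spots were well above background, which limits the precision of dim probes. A probe passed when over 50% of its spots were well above background on both arrays in at least 1 pool, and a gene was the mean of its passing probes.

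A diet is 1 pool, so diets were not tested. The 10 genes and all lists were chosen with earlier results of these data known. Of other genes, those of a list past a size of 1, or otherwise the highest and lowest, were named. The limma steps were tested on simulated data that held no dye effect of single probes, so that test does not cover the dye part. Alternatives tried were an offset of 0, no background subtraction, processed signals, median centring, other filters, the brightest probe, each array alone, limma and the methods' t-test. Tables were handled in Python 3.11.15 with pandas 2.3.3 and numpy 2.4.6.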

Additional observations from a re-analysis of the deposited data

Results flagged for a closer look

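In 3 of 16 named genes and 4 of 18 gene lists, both FeD arrays lay on one side of 0 and both FeO arrays on the other, and 0 of the 10 regulators did so, beside 8.47% of the 15259 genes with a value in both comparisons. The named genes are mostly the extremes of their lists, so their count cannot be set against that of the regulators. The differences were not tested, and both comparisons share the FeA pool. Rgs2 had a mean log2 ratio of −0.18 in FeD and 0.75 in FeO, a difference of 0.93. Unc13d had 0.24 in FeD and −0.31 in FeO, a difference of −0.55. Vipr2 had −0.24 in FeD, where it was well above background on 1 of 2 arrays, and 0.038 in FeO, a difference of 0.28.

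Over lists, the sides were judged by the median on each array. The adipocyte markers differed by 1.58 (−0.025 in FeD and 1.56 in FeO) and the lymphocyte markers by −0.91 (0.48 and −0.43). The acinar markers differed by −0.34 (0.068 over 10 genes and −0.27 over 6 genes), and receptor signalling by 0.057 (0.0046 and 0.062). The acinar medians rest on different genes, since Clps, Cpa1, Gp2 and Prss1 had no value in FeO. Of the 6 shared genes, Cel, Cpb1, Pnlip and Sycn were below 0 on array 2 in FeD (−0.66, −0.33, −0.15 and −0.12). Cela1 and Ctrb1 were above 0 there (0.39 and 0.50), so the acinar flag depends on which genes had values. The receptor signalling medians on single arrays were close to 0, at −0.020 and −0.0055 in FeD and 0.030 and 0.052 in FeO.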

How the results depend on the processing

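The count of regulators past a log2 size of 2 or 1 was 0 under every change of background correction, normalization, filter and probe choice. Asking for a test as well could only lower this count, so the 0 with either test adds nothing. Dropping the filter could not change it either, since all 10 genes had passed, and probe choice could affect Nr5a2 alone. With array 2 alone, 1 gene passed a size of 1 in FeO (Chrm3, −1.01), and the count over both single-array settings ran from 0 to 1. The median over the 10 genes ran from −0.018 to 0.24 in FeD and from −0.044 to 0.22 in FeO when each array was left out in turn, with the higher value on the array where the diet pool carried Cy3. Of 138 values of single genes under the other settings, 134 moved by less than the spread between arrays and 4 moved by more. Those 4 were Ptf1a with median centring and Gata6 with processed signals, in both comparisons. Many of the 134 could not move, since changes of filter and probe choice left most genes with the same probe. The spread was also wide for genes with a large dye part, such as Chrm3 and Sctr. Of regulators lower on both arrays there was 1 in each comparison, but 2 in FeD without background subtraction, 2 in each with processed signals, and 3 in FeD and 2 in FeO with median centring. Those higher on both numbered 3, but 2 in each with processed signals, 2 in FeO with an offset of 0, and 1 in FeD with median centring. Signs of the mean turned for Sctr in FeO (offset of 0, processed signals) and for Rab3d in FeO (processed signals, median centring), and both had means near 0. The Ptf1a mean ran from −0.41 to −0.32 in FeD, where median centring gave opposite signs on the 2 arrays, and from −0.74 to −0.56 in FeO. Gata6 reached −0.52 in FeD and had no value when both pools had to be above background, so its ratio is limited by signal over background. No paired analysis was possible because the 2 arrays of a comparison are technical repeats of 1 pool per diet.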
